A study of Mus musculus with 15 samples.

Results

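Many mature miRNAs leave Dicer with an end fixed by the hairpin and then gain bases that the gene does not encode. The sequences described here are the miRNA reads with added 3′ adenosine: inserts of 19 to 26 bases whose first 18 or more bases matched a named mouse hairpin exactly, and which matched it to their end except for 1 or 2 final A bases that the hairpin does not have at that place. They were counted in the 158 miRNA arms (the 5p or 3p strand of a hairpin) that had at least 500 reads over 15 libraries. The members are 1669 distinct sequences of the 15032 assigned to these arms, and the series holds 627951 distinct sequences in all. They made up 159848 of 4305540 arm reads (3.71%), and 155 of the 158 arms had at least 1 such read. The value followed throughout is the A-tailed share, the percentage of an arm's reads in 1 library that carry the added A, so it does not depend on how abundant the miRNA is.

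The 15 libraries fell into 5 groups of 3. MM3MG, of BALB/c origin, is a line of normal mammary epithelium. MM3MG-Her2 was derived from it by transduction with retroviral pLSXN-Neu. TUBO is a mouse breast cancer line from primary tumours of BALB-neuT mice, and it was sampled as cells, as exosomes isolated from its culture supernatant, and as what remained of that supernatant afterwards. All cultures received no treatment and were grown in DMEM with 10% FCS, so the medium of every group held serum of another species. Each model is a single cell line, and the labels do not say whether the replicates were separate cultures. The p-values below therefore measure the spread between these libraries, which may be technical. Shared by all groups was also the library chemistry, in which an adenylated adapter was joined to the RNA's 3′ end by ligation.

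Adenosine is added to miRNAs by noncanonical poly(A) polymerases, of which GLD-2 (TENT2) is the best described, and uridine by TUT4 and TUT7. The effect of an added A differs between miRNAs: GLD-2 is known to stabilise miR-122 in liver, whereas PAPD5 (TENT4B) adds A to miR-21 and marks it for trimming from the 3′ end by PARN. miR-122 was not among the 158 arms. Tailed forms are also followed in extracellular RNA, because the released miRNAs of some cell types carry other tails than those left inside.

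The arms on which the results turn are shown first, because the place of the added A decides what can be counted. Mature sequences are from RefSeq (GRCm38.p6), which had an entry for 143 of the 158 arms, with the seed (bases 2 to 8) in capitals. miR-92a-3p is the guide strand of the last hairpin in the miR-17-92 cluster, and a hairpin on another chromosome encodes the same sequence. It shares its seed with miR-25-3p, which comes from the miR-106b-25 cluster. The let-7 arms share another seed, and miR-148a-3p and miR-152-3p share a further one.
miR-92a-3p: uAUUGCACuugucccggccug
miR-25-3p: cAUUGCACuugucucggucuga
let-7i-5p: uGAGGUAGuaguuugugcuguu
let-7b-5p: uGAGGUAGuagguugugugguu
let-7f-5p: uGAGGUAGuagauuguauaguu
miR-148a-3p: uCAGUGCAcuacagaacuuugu
miR-152-3p: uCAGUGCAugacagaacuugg
miR-21a-5p: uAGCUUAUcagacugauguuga
miR-182-5p: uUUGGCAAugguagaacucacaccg
miR-200c-3p: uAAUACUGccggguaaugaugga
miR-125b-5p: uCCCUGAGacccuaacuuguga
miR-210-3p: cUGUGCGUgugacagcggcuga

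The most common A-tailed insert of the main arms follows, as read in the deposited libraries (T for U), with the added A in capitals. For miR-92a-3p the form with AA is given too, since it was nearly as frequent.
miR-92a-3p with A: tattgcacttgtcccggcctgtA
miR-92a-3p with AA: tattgcacttgtcccggcctgtAA
miR-25-3p with A: cattgcacttgtctcggtctgaA
let-7i-5p with A: tgaggtagtagtttgtgctgttA
miR-148a-3p with A: tcagtgcactacagaactttgtcA
miR-21a-5p with A: tagcttatcagactgatgttgacA
miR-182-5p with A: tttggcaatggtagaactcacaccgA
miR-200c-3p with A: taatactgccgggtaatgatggaA
miR-125b-5p with A: tccctgagaccctaacttgtgaA

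The hairpins go on with other bases at these places, shown here in capitals after the part that the A-tailed insert matched.
Mir92-1: uauugcacuugucccggccuguUGAGUU
Mir25: cauugcacuugucucggucugaCAGUGC
Mirlet7i: ugagguaguaguuugugcuguuGGUCGG
Mir21a: uagcuuaucagacugauguugacUGUUGA
Mir182: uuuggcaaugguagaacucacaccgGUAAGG

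In GRCm38.p6 the miR-92a-3p sequence lies in 2 hairpins, Mir92-1 at chr14:115044476-115044496 (+ strand) and Mir92-2 at chrX:52741854-52741874 (- strand). The U that ends the matched part is encoded in Mir92-1. In Mir92-2 the mature sequence is followed by A, so a read of the annotated 21 bases plus A is templated there and was not counted. A read that had gained U and then A from Mir92-2 cannot be told apart from an A-tailed Mir92-1 read. miR-25-3p lies at chr5:138165332-138165353 (-), let-7i-5p at chr10:122985698-122985719 (-), miR-21a-5p at chr11:86584120-86584141 (-), miR-182-5p at chr6:30165962-30165986 (-), miR-148a-3p at chr6:51269829-51269850 (-) and miR-200c-3p at chr6:124718324-124718346 (-). Searched whole in 141767 annotated transcripts, 1 of the 1669 A-tailed inserts was found, with 1 read.

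Most tails were short: a single A was carried by 132619 reads (82.97%) and AA by 27229. The A-tailed share pooled over libraries ran from 0 to 23.07% between arms, with a median of 3.07% and quartiles of 1.49% and 5.69%. Above 10% were 17 of the 158 arms, and 25 were below 1%. The 3 arms without an A-tailed read were miR-362-3p, miR-3970-5p and miR-92a-1-5p, with 515, 686 and 522 reads.

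The 12 arms with the most A-tailed reads held 65.36% of them. miR-92a-3p led with 28259 of its 279766 reads (10.1%). It was followed by miR-21a-5p, an abundant miRNA of proliferating and tumour cells, with 18537 of 604607 (3.07%), and by let-7i-5p with 11209 of 121316 (9.24%). miR-182-5p had 7600, miR-199a-3p/miR-199b-3p 6772, let-7b-5p 6132, let-7c-5p 5162, let-7f-5p 5125, miR-30a-5p 4638, miR-378a-3p/miR-378c 4625, miR-27b-3p 3569 and miR-25-3p 2843 A-tailed reads. An abundant arm could have a low share: miR-30a-5p had 340828 reads and a share of 1.36%, whereas miR-28a-3p had 3082 reads and the highest share of any arm, 23.07%.

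The 8 arms with the highest shares, by the mean of the 5 group means, were taken from the 72 arms with at least 20 reads in every library. Of these 8, miR-28a-3p held 31.0, 37.1 and 33.1% in MM3MG cells, 30.1, 20.1 and 19.01% in MM3MG-Her2 cells, 18.4, 18.2 and 18.6% in TUBO cells, 23.6, 19.2 and 19.1% in exosomes and 21.6, 25.2 and 23.9% in supernatant. The MM3MG libraries were higher than all others, and TUBO cells the lowest group. The other 7 were miR-99b-3p, miR-3107-5p/miR-486-5p, miR-152-3p, miR-1198-5p, miR-378a-3p/miR-378c, miR-151-3p and miR-328-3p, with pooled shares from 10.28% (miR-328-3p) to 18.82% (miR-152-3p).

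The share depended on where the matched part ended. In miR-92a-3p, 95.55% of the A-tailed reads sat on the form of 22 bases that ends in U, 1 base past the annotated end. In miR-21a-5p, 88.98% sat on the form of 23 bases that ends in C, 1 base past the annotated end, and the annotated form of 22 bases had a share of 1.69% against 3.81% for the longer one. miR-30a-5p went the other way: its form of 21 bases, 1 short of the annotated end, had a share of 9.45%, and the most abundant form, of 24 bases, 0.395%. In miR-26a-5p the form of 21 bases had 15.1% and the annotated form of 22 bases 4.92%. Forms of one miRNA that differ by a single base at the 3′ end thus differed several-fold in their A-tailed share, as a description over pooled reads. A longer form whose last base was misread as A cannot be told apart from the shorter form with an added A. In miR-26a-5p the form of 21 bases had 2575 reads and that of 22 bases 34923. The part of such misreads in the shares of the shorter forms was not tested.

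Part of the members cannot be seen by construction. Where the hairpin itself goes on with A, an added A is read as a longer templated form, and the share of that form is 0. In 18 arms more than 50% of reads ended before such an A, and their median share was 0.417%, against 3.26% in the other 140 arms. Over all arms, reads whose matched part ended in U held 46.28% of the A-tailed reads and 51.25% of the reads not followed by a hairpin A. Those ending in A held 18.41 and 14.55%, in G 18.1 and 13.4%, and in C 17.21 and 20.8%. The median share was 3.5% over 82 arms of the 5p side and 2.26% over 73 of the 3p side.

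Before groups are compared, the libraries themselves were examined. They held from 196152 to 710902 reads, of which 27.11 to 77.45% lay in the 158 arms, and the supernatant libraries were the smallest, with 56698 to 74157 arm reads. In arm abundance, exosome replicate 3 stood apart from exosome replicates 1 and 2 (chi-square per degree of freedom 148 and 142, against 24.8 between those 2), MM3MG replicate 1 from the other MM3MG libraries (80.2 and 80.1 against 27.8), and supernatant replicate 3 from the other supernatant libraries (48.5 and 44.1 against 5.07). Of 7 epithelial marker miRNAs, all were found in TUBO cells, where they summed to 2.54 to 2.66% of arm reads, but they reached at most 0.00451% in MM3MG cells and 0.00401% in MM3MG-Her2 cells, with miR-203-3p and miR-205-5p at 0 in the latter. The 5 mesenchymal markers summed to 17.8 to 19.3%, 10.4 to 10.8% and 4.73 to 4.74% in MM3MG, MM3MG-Her2 and TUBO cells. In TUBO cells nearly all of this was miR-143-3p, with 67321 reads. There miR-145a-5p had 239 reads, miR-199a-3p/miR-199b-3p 154, miR-199a-5p 3 and miR-214-3p 0. In MM3MG cells the same 5 had 117924, 741, 90419, 3213 and 2384 reads. Of 7 blood cell markers 6 were found under their listed names: these 6 summed to 0.131 to 0.156% in exosomes and to at most 0.00269% elsewhere. The other, miR-486a-5p, is not in these sums, because its reads were counted under the joint name miR-3107-5p/miR-486-5p. That arm had 12453 reads in exosomes, 944 in supernatant, 1229 in MM3MG, 467 in MM3MG-Her2 and 201 in TUBO cells. The part of these differences in the A-tailed shares was not tested.

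Taken over all 158 arms, the A-tailed share was 4.27, 4.86 and 4.88% in the MM3MG libraries and 6.01, 5.71 and 5.46% in the MM3MG-Her2 libraries. TUBO cells held 3.01, 2.92 and 3.06%. Exosomes had 2.31, 2.44 and 2.94%, and supernatant 1.56, 1.47 and 1.65%. The 2 MM3MG lines were thus above all TUBO material, supernatant was below all other libraries, and the highest exosome library reached into the range of the TUBO cells. Counting error alone was small beside this: the 95% Wilson intervals had half-widths of 0.0463 to 0.107 percentage points, and they cover counting error only, since reads were amplified by PCR and carry no molecular identifiers.

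As means the 5 groups stood at 4.67 ± 0.343% (SD, n = 3) in MM3MG, 5.72 ± 0.275% for MM3MG-Her2, 3.00 ± 0.0704% for cells of TUBO, 2.56 ± 0.331% for its exosomes and 1.56 ± 0.0911% for the supernatant. The groups differed over all 5 (exact permutation test over 1401400 groupings, p = 1.4e-06). Between 2 groups of 3, the smallest two-sided exact p is 0.1, so no pair can pass 0.05. All 6 pairs reached 0.1 in the exact permutation test except exosomes against TUBO cells, which overlapped (p = 0.2). Neighbours in the order of levels whose libraries did not overlap were MM3MG-Her2 and MM3MG, MM3MG and TUBO cells, and exosomes and supernatant.

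The kinds of miRNA present moved this library-wide value. miR-92a-3p made up 2.94 ± 0.327% (SD, n = 3) of arm reads in MM3MG, 10.7 ± 0.693% for MM3MG-Her2, 6.43 ± 0.277% for cells of TUBO, 3.52 ± 0.686% for its exosomes and 25.5 ± 0.473% for the supernatant. The excess of MM3MG-Her2 over MM3MG, 1.05 percentage points, became -0.0135 points without miR-92a-3p. The median over the 72 arms with at least 20 reads in every library stood at 4.75% in both. Each of these 72 arms was then given a fixed weight in every library, its part of their pooled reads. The means at these weights were 5.18% in MM3MG, 5.46% for MM3MG-Her2, 3.54% for cells of TUBO, 2.89% for its exosomes and 1.73% for the supernatant. The deficit of supernatant against TUBO cells was 1.44 points as measured, 0.723 points without miR-92a-3p and 1.81 points at the fixed weights.

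Other added bases were counted in the same way, for comparison. They do not measure error alone, because U is also added by enzymes. An added G was found on 0.358 ± 0.0204% (SD, n = 3) of arm reads in MM3MG, 0.216 ± 0.0116% for MM3MG-Her2, 0.140 ± 0.00948% for cells of TUBO, 0.227 ± 0.0118% for its exosomes and 0.248 ± 0.0406% for the supernatant. Tails of A were thus 26.5 times as frequent as tails of G in MM3MG-Her2 and 6.44 times in supernatant. In TUBO cells they were 21.45 times as frequent, in MM3MG 13.1 times and in exosomes 11.3 times. An added C was found on 0.400 to 2.46% of reads as group means, and 19831 of the 42337 reads with C were of miR-21a-5p. An added U was the most frequent tail: 11.3 ± 0.847% in MM3MG, 6.81 ± 0.325% for MM3MG-Her2, 7.33 ± 0.0266% for cells of TUBO, 8.40 ± 0.102% for its exosomes and 6.37 ± 0.565% for the supernatant. Exosomes were above TUBO cells for U, G and C (for C 0.787 against 0.571%), with no overlap (exact permutation test, n = 3, p = 0.1 each). For A their mean was lower and the libraries overlapped.

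Other library properties moved with the groups as well. Reads in the 158 arms were 74.96% of all reads in MM3MG, 51.2% for MM3MG-Her2, 75.2% for cells of TUBO, 58.3% for its exosomes and 29.4% for the supernatant, as group means. Inserts of at most 20 bases made up 4.55, 2.45, 3.66, 4.69 and 9.25% of arm reads in the same order. Reads whose matched part ended short of the annotated 3′ end were 28.3, 15.5, 19.8, 26.3 and 23.8%, and their A-tailed share was 2.72, 2.57, 2.76, 2.09 and 1.77%. At the annotated end, the A-tailed share was 6.74 ± 0.182% (SD, n = 3) in MM3MG, 5.91 ± 0.202% for MM3MG-Her2, 3.03 ± 0.105% for cells of TUBO, 2.61 ± 0.338% for its exosomes and 1.81 ± 0.199% for the supernatant. For reads that ended short of it, the 3 cell groups lay close together, and exosomes and supernatant were lower. At 1 base past the annotated end, the share was 5.31 ± 0.876% in MM3MG, 8.05 ± 0.731% in MM3MG-Her2 and 4.52 ± 0.129% in TUBO cells. The part of insert length in the shares of single arms was not tested, beyond the restriction to reads that reach the annotated end.

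Single arms were compared in 2 fits, 1 over the 9 cell libraries (107 arms) and 1 over the 9 TUBO libraries (80 arms), by edgeR's quasi-likelihood test on A-tailed reads with the arm's reads as offset. Calls are at a Benjamini-Hochberg adjusted p under 0.05. Comparisons within a fit share libraries: MM3MG is the control of both other cell groups, and TUBO cells of both exosomes and supernatant. Changes are on the log2 scale of the A-tailed share with their standard error.

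The first comparison was MM3MG-Her2 against MM3MG, a Neu-transduced derivative against its parental line. The 2 lines also differed in arm abundance, for example in miR-127-3p, with 7410 reads in MM3MG and 56 in MM3MG-Her2. An effect of Neu cannot be told apart from other differences between the lines. Of 107 arms, 10 rose (9.35%) and 10 fell (9.35%), and the median change over all arms was 0.07. Measured relative to each library's own overall share, 1 rose and 23 fell, and the median moved to -0.21, so the split depends on the scale. The count is also sensitive to single libraries: it was 9 in place of 20 without MM3MG replicate 3, and leaving out MM3MG-Her2 replicate 1 or 2 gave 12 or 13. limma on the log2 odds called 2 and DESeq2 13.

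Among the arms that rose was miR-20a-5p, a member of the miR-17-92 cluster, at 2.04, 2.35 and 2.21% in MM3MG and 4.46, 4.38 and 5.30% in MM3MG-Her2 (1.04 ± 0.31, edgeR adjusted p = 0.00898). miR-29a-3p, a repressor of collagen genes, went from 3.50, 3.49 and 3.40% to 5.86, 5.15 and 5.29% (0.65 ± 0.12). In both, the libraries of the 2 lines did not overlap. miR-222-3p, miR-532-5p, miR-101b-3p and miR-21a-5p rose by 0.45 to 0.59, and miR-21a-5p, at 2.07, 3.06 and 2.85% in MM3MG, reached 4.14, 3.50 and 3.28% (edgeR adjusted p = 0.00816).

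Among those that fell, miR-16-5p, a regulator of cyclin genes, went from 9.98, 8.13 and 5.72% to 4.66, 4.28 and 4.81% (-0.81 ± 0.16, edgeR adjusted p = 8.6e-06). miR-30d-5p went from 3.11, 3.38 and 3.36% to 1.96, 1.96 and 1.88% (-0.77 ± 0.16). miR-30a-5p fell by 0.72 from 1.97, 2.22 and 2.35% to 1.09, 1.504 and 1.39%. Counted only on reads that reach the annotated end, miR-30a-5p changed by 0.02. On its form of 21 bases, 1 short of that end, the share was 10.6 ± 0.793% (SD, n = 3) in MM3MG and 7.36 ± 0.613% in MM3MG-Her2. A lower share on short forms was not separated from a change in how many reads end short. miR-744-5p, miR-196b-5p and miR-152-3p fell by 1.27, 0.97 and 0.63, of which miR-152-3p was at 24.96, 22.8 and 23.4% in MM3MG and at 12.2, 16.2 and 18.01% in MM3MG-Her2. Several of these calls were lost when 1 library was left out. Leaving out MM3MG replicate 3 took miR-20a-5p (1.03), miR-21a-5p (0.50), miR-222-3p (0.38), miR-744-5p (-1.17) and miR-196b-5p (-0.75) out of the calls. Leaving out replicate 2 of MM3MG did so for miR-20a-5p (1.11) and replicate 1 for miR-744-5p (-1.14), while miR-222-3p stood at 0.93 without replicate 2 and was still called. Among the MM3MG-Her2 libraries, the calls of miR-21a-5p (0.35), miR-222-3p (0.58), miR-744-5p (-1.61), miR-196b-5p (-0.93) and miR-152-3p (-0.47) were lost without replicate 1. Those of miR-21a-5p (0.48), miR-222-3p (0.56), miR-744-5p (-0.80) and miR-532-5p (0.45) were lost without replicate 2, and that of miR-196b-5p (-0.88) without replicate 3. A lost call did not always mean a changed estimate. With all libraries miR-222-3p stood at 0.59 and miR-21a-5p at 0.45, close to several of these values, whereas miR-744-5p stood at -1.27.

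The tumour line TUBO was compared with both MM3MG lines. Against MM3MG, 54 of 107 arms fell (50.5%) and 4 rose (3.74%), with a median of -0.69. Against MM3MG-Her2, 50 fell (46.7%) and 0 rose (0.0%), with a median of -0.71. By edgeR 57 arms had an unadjusted p under 0.05 in the latter, and DESeq2 and limma called 0 higher as well. Measured relative to each library's overall share, 12 rose and 8 fell against MM3MG (median -0.04), and 21 rose and 0 fell against MM3MG-Her2 (median 0.22). The estimate was below 0 in 91 of 107 arms against MM3MG and in 88 against MM3MG-Her2.

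miR-92a-3p was at 14.7, 15.1 and 15.1% in MM3MG and 17.4, 17.2 and 17.2% in MM3MG-Her2, and at 8.34, 9.10 and 8.99% in TUBO cells. The change was -0.77 ± 0.08 against MM3MG (edgeR adjusted p = 8.5e-21) and -0.97 ± 0.08 against MM3MG-Her2 (4.1e-32). let-7i-5p was at 10.7, 12.1 and 13.2%, then 10.6, 10.2 and 9.12%, and at 6.02, 5.62 and 6.11% in TUBO cells (-1.02 ± 0.08 and -0.75 ± 0.09). miR-27b-3p went from 11.1, 14.1 and 15.7% in MM3MG and 11.3, 12.6 and 15.4% in MM3MG-Her2 to 5.82, 5.47 and 6.06% (-1.24 ± 0.10 and -1.15 ± 0.13). All 3 arms were lower in each TUBO library than in any MM3MG or MM3MG-Her2 library.

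The largest falls by the naming rule against MM3MG were those of miR-744-5p (-1.78), miR-34c-5p (-1.45), miR-221-3p (-1.44), miR-16-5p (-1.40), miR-183-5p (-1.38) and miR-27b-3p. miR-183-5p, from the cluster it shares with miR-182, held 10.7, 8.80 and 10.2% in MM3MG and 3.60, 3.64 and 4.04% in TUBO cells (edgeR adjusted p = 2.7e-26). Against MM3MG-Her2 they were those of miR-30c-5p (-1.52), miR-191-5p (-1.41), miR-34c-5p (-1.39), miR-1839-5p (-1.36), miR-130a-3p (-1.31) and miR-532-5p (-1.30). miR-1839-5p held 26.1, 19.1 and 20.7% in MM3MG-Her2 and 7.44, 9.15 and 8.88% in TUBO cells. miR-34c-5p rests on 5 A-tailed reads of 240 in TUBO cells, with shares of 1.21, 0 and 4.88%. Its change against MM3MG was -3.13 without TUBO replicate 3, and it was not past the threshold without TUBO replicate 1 (-1.16) or 2 (-0.91). Against MM3MG-Her2 the same values were -3.07, -1.11 and -0.86, and the call was also lost without MM3MG-Her2 replicate 1 (-1.33) or 3 (-1.36). miR-130a-3p was not past the threshold without TUBO replicate 3 (-1.10) or MM3MG-Her2 replicate 2 (-1.22).

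Against this shift, miR-21a-5p was higher in TUBO cells (3.58, 3.27 and 3.65%) than in MM3MG cells (0.40 ± 0.11, edgeR adjusted p = 0.00645), and against MM3MG-Her2 it changed by -0.05 ± 0.11 (adjusted p = 0.767). Its rise was 0.25 without MM3MG replicate 1, and it was not past the threshold without MM3MG replicate 3 (0.45) or TUBO replicate 3 (0.36). On its form of 23 bases the shares were 3.29 ± 0.838% (SD, n = 3) in MM3MG, 4.32 ± 0.619% in MM3MG-Her2 and 4.35 ± 0.221% in TUBO cells. miR-101b-3p rose against MM3MG as well, from 5.57, 5.23 and 5.57% to 8.10, 7.79 and 7.06% (0.49 ± 0.11), with 8.28, 7.61 and 6.75% in MM3MG-Her2. Both arms had no overlap between TUBO and MM3MG libraries.

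Families whose lists were drawn up with earlier results of these data known were counted by the same calls. Of 11 let-7 arms tested, 8 fell in TUBO cells against each MM3MG line, with medians of -0.66 and -0.75. Against MM3MG-Her2, let-7b-5p, let-7c-5p, let-7f-5p and let-7i-5p all turned to positive values of 0.11 to 0.39 on the scale relative to the library. Of the 5 arms of miR-23/27/24, 4 fell against MM3MG and 2 against MM3MG-Her2. The list around miR-17-92 also holds its paralogs of the miR-106b-25 cluster. Of its 4 tested arms with a hairpin in miR-17-92 itself (miR-17-5p, miR-19b-3p, miR-20a-5p and miR-92a-3p), miR-92a-3p alone fell against MM3MG, and all but miR-19b-3p fell against MM3MG-Her2. Of its 4 from miR-106b-25, miR-25-3p and miR-106b-5p fell against MM3MG, and miR-25-3p, miR-93-5p and miR-106b-3p against MM3MG-Her2. In miR-26, both arms fell against each line, miR-26a-5p by 0.93 and 0.81. Of 4 arms of miR-181 tested, 2 fell and 1 rose against MM3MG. For all 107 arms the counts were 54 and 50, so a fall of 8 in 11 let-7 arms is set against 50.5 and 46.7%.

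Exosomes were compared with the TUBO cells that released them. Of 80 arms, 16 fell (20%) and 2 rose (2.5%), with a median of -0.27. Measured relative to the library, 8 fell and 6 rose (median -0.03). The count was 11 in place of 18 without exosome replicate 1, 16 without exosome replicate 3, which stood apart in abundance, and limma called 1.

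The arm with the firmest change was miR-200c-3p, a miRNA that keeps epithelial cells from losing their identity, whose sequence is given above. It held 12.5, 11.3 and 11.5% in TUBO cells, 3.85, 4.07 and 4.44% in exosomes and 1.38, 1.54 and 0.380% in supernatant. It had too few reads in the MM3MG lines to be compared. The change in exosomes was -1.51 ± 0.15 (edgeR adjusted p = 6.7e-20), and each exosome library was below every cell library. miR-200a-3p, of the same family, went from 1.85, 1.32 and 1.80% to 0.880, 0.663 and 0.915% (-1.04 ± 0.27), and 3 of the 4 miR-200 arms tested fell in exosomes, against 16 of all 80 (20%).

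miR-148a-3p fell from 2.35, 2.23 and 2.29% in cells to 1.06, 1.04 and 1.24% in exosomes (-1.03 ± 0.15, edgeR adjusted p = 1.5e-10). miR-101a-3p fell from 3.92, 4.27 and 3.70% to 1.87, 1.98 and 0.880%, miR-351-5p from 7.19, 8.18 and 7.69% to 3.26, 2.53 and 2.00%, and miR-146b-5p from 0.700, 0.842 and 0.893% to 0.266, 0.406 and 0.468%. miR-21a-5p fell from 3.58, 3.27 and 3.65% to 1.79, 1.97 and 1.97% (-0.88 ± 0.12). Without exosome replicate 3, miR-351-5p changed by -1.36 and was not past the threshold. In these arms no exosome library reached the lowest cell library.

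miR-92a-3p did not follow. Its share was 7.51, 7.99 and 8.99% in exosomes against 8.34, 9.10 and 8.99% in cells, a change of -0.11 ± 0.11 (edgeR adjusted p = 0.501), with overlapping libraries. miR-125b-1-3p, the passenger strand of one miR-125b hairpin, rose from 4.50, 3.27 and 4.31% to 12.7, 15.6 and 13.3% (1.70 ± 0.41, edgeR adjusted p = 6.6e-04). This rise rests on 23 A-tailed of 170 reads in exosomes and 24 of 585 in TUBO cells. The arm had 2120 reads over the 15 libraries and is the one that rose in the supernatant too, to 10.1, 12.8 and 19.1%.

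In the supernatant, the A-tailed shares of many arms were far lower than in the cells. Here too, RNA of the serum cannot be told apart from RNA released by TUBO cells. Of 80 arms, 35 fell (43.8%) and 1 rose (1.25%), with a median of -1.07. Measured relative to the library, 13 fell and 8 rose (median -0.15). Few reads stand behind most arms here, because an arm entered with as few as 20 reads in a library.

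miR-92a-3p made up 25.5% of the arm reads of the supernatant. It held 0.638, 0.563 and 0.688% there, on 52249 reads, against 8.34, 9.10 and 8.99% in cells on 91673 reads and 7.51, 7.99 and 8.99% in exosomes on 31120. The change was -3.80 ± 0.14 against cells (edgeR adjusted p = 9.9e-101) and, for exosomes against supernatant, 3.69 ± 0.14 (a ratio of 12.9, adjusted p = 6.3e-95). Every supernatant library was far below every cell and exosome library, and the latter 2 overlapped. On the form of 22 bases alone, the shares were 9.43 ± 0.490% (SD, n = 3) in cells, 8.98 ± 0.835% in exosomes and 0.684 ± 0.0957% in supernatant. Both tail lengths were lower: A fell from 5.06 to 0.377% of the arm's reads and AA from 3.75 to 0.252%, as group means.

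Its other tails were low in the supernatant as well. A followed by U was found on 4.54 ± 0.293% (SD, n = 3) of miR-92a-3p reads in cells, 6.33 ± 0.703% in exosomes and 0.825 ± 0.281% in supernatant. A single U was found on 0.638 ± 0.0613%, 0.782 ± 0.0768% and 0.0825 ± 0.00854%. The supernatant was thus lower for all 3 kinds of tail in miR-92a-3p, with no overlap between its libraries and those of cells or exosomes.

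miR-25-3p, with the same seed, showed 2.62, 2.05 and 2.22% in cells, 1.76, 1.97 and 1.77% in exosomes and 0.439, 0.643 and 0.314% in supernatant (-2.41 ± 0.19 against cells, edgeR adjusted p = 1.6e-29). Its single U tail stood at 7.36 ± 0.773% (SD, n = 3) in cells and 4.81 ± 2.22% in supernatant. miR-148a-3p went from 2.35, 2.23 and 2.29% in cells to 0.335, 0.187 and 0.0843% (-3.71 ± 0.37). miR-204-5p was low in all TUBO material, with 0.410, 0.217 and 0.332% in cells, 0.318, 0.318 and 0.271% in exosomes and 0.0379, 0.0345 and 0.0567% in supernatant. In these arms every supernatant library was below every cell and exosome library.

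For other arms the supernatant gave too few A-tailed reads for a fitted change to be read. miR-125b-5p had 2 of 915 reads there against 204 of 3889 in cells, 24 times the share (95% counting interval 6.56 to 199.5), and 74 of 1290 in exosomes. miR-210-3p, a hypoxia-induced miRNA, had 1 of 1326 against 94 of 6926 (ratio 18, 3.15 to 718) and 233 of 11144 in exosomes. miR-100-5p had 1 of 171 against 75 of 760 (ratio 16.9, 2.94 to 675). miR-429-3p had 0 of 269 against 73 of 3087, so its share was at least 2.12-fold lower by a floor of 3 reads over the group, and miR-222-3p had 0 of 206 against 61 of 4145, at least 1.01-fold lower. These intervals cover counting error only.

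Not all arms fell. let-7i-5p held 10.4, 6.63 and 4.24% in supernatant against 6.02, 5.62 and 6.11% in cells (0.35 ± 0.28, edgeR adjusted p = 0.292). let-7f-5p changed by -0.06 ± 0.56, miR-378a-3p/miR-378c by -0.25 ± 0.19, miR-28a-3p by 0.35 ± 0.23 and miR-151-3p by 0.35 ± 0.16, none past the threshold. let-7b-5p did fall, from 7.13, 7.01 and 7.25% to 4.42, 3.33 and 4.84% (-0.77 ± 0.13, edgeR adjusted p = 1.5e-07), and on the scale relative to the library it changed by 0.18. In let-7, 3 of 10 arms fell with a median of -0.06, in miR-200 3 of 4 with -2.73, and in miR-125/99/100 4 of 6 with -1.97, against 43.8% lower and a median of -1.07 over the 80 arms. miR-92a-3p was the only arm with a hairpin in the miR-17-92 cluster tested here, and from miR-106b-25, miR-25-3p and miR-93-5p fell and miR-106b-3p changed by -0.08 ± 0.32.

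miR-182-5p shows how end position enters. Its share was 3.66, 3.81 and 3.56% in cells and 0.783, 1.19 and 1.34% in supernatant (-1.66 ± 0.22, edgeR adjusted p = 5.2e-12). On the form of 25 bases, the annotated end, it was 5.73 ± 0.429% (SD, n = 3) in cells and 8.05 ± 1.89% in supernatant, and counted only on reads that reach that end the change was 0.72. The direction for miR-182-5p thus turned with the end position of the reads counted.

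Exosomes and supernatant come from the same culture medium and were compared directly. Of 80 arms, 22 were higher in exosomes (27.5%) and 2 were lower (2.5%), with a median of 0.81. Measured relative to the library, 10 were higher and 7 lower (median 0.12). By the naming rule the largest rises were those of miR-210-3p, miR-125b-5p, miR-92a-3p, miR-100-5p, miR-204-5p and miR-148a-3p. As ratios of pooled shares, miR-210-3p stood at 27.7 (95% counting interval 4.93 to 1100), miR-125b-5p at 26.2 (7.01 to 221) and miR-100-5p at 13.9 (2.40 to 561). miR-148a-3p changed by 2.68 ± 0.43 and miR-204-5p by 2.71 ± 0.53 (edgeR adjusted p = 1.3e-08 and 3.6e-06).

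In the other direction, miR-151-3p held 7.07, 8.50 and 7.38% in exosomes and 12.2, 15.3 and 10.1% in supernatant (-0.66 ± 0.17, edgeR adjusted p = 5.5e-04). let-7i-5p, the other arm lower in exosomes, had overlapping libraries (-0.72 ± 0.29, adjusted p = 0.0494). Without supernatant replicate 1 it changed by -0.26, and that call was also lost without supernatant replicate 2 (-0.79), exosome replicate 1 (-0.62) or exosome replicate 2 (-0.69).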

How the data were processed

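The authors deposited, for each of the 15 libraries, a count table of distinct insert sequences with their whole-number read counts. The values show that adapters had been removed and identical reads collapsed. How adapters were trimmed is not given in these sources. Per the labels' protocols, RNA was isolated with TRIzol, adapters were ligated to both ends, and miRNA bands were cut from a gel after PCR. No molecular identifiers are named.

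Inserts were matched to 1174 named hairpins (GENCODE M21, GRCm38): at least 18 bases exact from the start, then up to 2 differences. Features sharing at least 50% of their reads were merged and carry a joint name. Near-identical members of a family are uncertain. The 4305540 reads in the 158 arms are 62.46% of 6892924 deposited reads. Per library the arm reads ran from 56698 to 530769.

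A-tailed reads were tested with edgeR 4.0.16 (R 4.3.3) quasi-likelihood, the log of arm reads as offset, for arms with at least 20 reads in every library of a fit and 10 A-tailed reads over it. Benjamini-Hochberg adjustment was over all arms of a comparison. On simulated counts with 40 arms changed 2-fold, the fit recovered 30 (TUBO against MM3MG), 31 (TUBO against MM3MG-Her2), 23 (supernatant against TUBO cells) and 20 (exosomes against supernatant), with 1 false call each. For MM3MG-Her2 against MM3MG and exosomes against TUBO cells 0 arms were changed, so recovery was not simulated there. Both had 0 false calls. Exact permutation tests and intervals used scipy 1.17.1. Alternatives were DESeq2 1.42.0, limma 3.58.1 (0.5 added to both counts), other denominators, filters and ends, the library-wide share in the offset, the replicate number as a block, and each replicate left out.

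The arms named are the 12 with most A-tailed reads, the 8 with the highest share, and per comparison up to 6 rises and 6 falls past the threshold, with at least 50 A-tailed reads and no overlap between libraries, plus examples from the family lists. The members and lists were chosen with earlier results of these data known.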

Additional observations from a re-analysis of the deposited data

How the results depend on the processing

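Library-wide differences are in percentage points. The median arm and the fixed arm weights (pooled reads) cover only the 72 arms with at least 20 reads in every library. MM3MG-Her2 minus MM3MG, 1.05 as measured, was 0.365 with only 1 added A and 0.642 where the next hairpin base is not A. It was 0.637 on reads that reach the annotated end, 0.284 at fixed arm weights, 0.00240 for the median arm and -0.0135 without miR-92a-3p. TUBO minus MM3MG was -2.18 with exact or A-tailed reads only, -2.52 where the next base is not A and -2.81 at the annotated end. TUBO minus MM3MG-Her2 was -1.84 with only 1 added A, -3.27, -3.16 and -3.45 under the same 3 settings, -1.88 for the median arm, -1.75 without miR-92a-3p and -1.92 at fixed weights. Supernatant minus TUBO cells was -1.23, -1.70, -1.61, -1.94, -1.73, -0.723 and -1.81 in that order. Exosomes minus supernatant was 1.40 at the annotated end and 0.480 without miR-92a-3p.

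Counts of called arms for MM3MG-Her2 against MM3MG, 20 as reported, were 13 at the annotated end, 13 by DESeq2 and 2 by limma, and 9 to 20 with a replicate left out. For exosomes against TUBO cells, 18 as reported, they were 1 by limma and 11 to 16 with a replicate left out. Relative to the library-wide share, 20 arms were called for TUBO against MM3MG, 21 for TUBO against MM3MG-Her2 and 21 for supernatant against TUBO cells.

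Among named arms, the log2 change turned sign at the annotated end in miR-182-5p (-0.22 for MM3MG-Her2 against MM3MG, 0.18 for exosomes and 0.72 for supernatant against cells, -0.54 for exosomes against supernatant) and miR-30a-5p (0.02 for MM3MG-Her2 against MM3MG), and with inserts of 1 feature only in let-7c-5p (0.64, TUBO against MM3MG-Her2). Relative to the library-wide share it turned for MM3MG-Her2 against MM3MG in miR-199a-3p/miR-199b-3p (-0.05) and miR-92a-3p (-0.09). For TUBO against MM3MG it turned in let-7b-5p (0.02), miR-151-3p (0.15), miR-152-3p (0.06) and miR-378a-3p/miR-378c (0.37). For TUBO against MM3MG-Her2 it turned in let-7b-5p (0.13), let-7c-5p (0.39), let-7f-5p (0.11), let-7i-5p (0.18), miR-151-3p (0.50), miR-3107-5p/miR-486-5p (0.09), miR-378a-3p/miR-378c (0.62) and miR-99b-3p (0.28). For exosomes against supernatant it turned in let-7b-5p (-0.08), miR-27b-3p (-0.04), miR-30a-5p (-0.01) and miR-3107-5p/miR-486-5p (-0.15), and for supernatant against cells in let-7b-5p (0.18), miR-27b-3p (0.13) and miR-30a-5p (0.19). The cause was not tested.

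Replicate numbers did not pair the libraries: in no comparison did every same-numbered pair correlate above 0.1. With the replicate block, 17, 53, 49, 15, 34 and 22 arms were called in the 6 comparisons, against 20, 58, 50, 18, 36 and 24 without it. Ends, fixed weights and uncalled bases were alternatives chosen after the data had been seen. Depth limits the supernatant most: several of its arms had 0 to 3 A-tailed reads.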

Other observations

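Tails that begin with A but end in another base fall outside the counts above. A followed by U was found on 33096 reads, of which 13336 were of miR-92a-3p. Its share of arm reads was 0.783 ± 0.0968% (SD, n = 3) in MM3MG, 0.890 ± 0.0297% for MM3MG-Her2, 0.731 ± 0.0152% for cells of TUBO, 0.676 ± 0.140% for its exosomes and 0.907 ± 0.140% for the supernatant. Over all arms this form was thus not lower in supernatant than in TUBO cells (exact permutation test, n = 3, p = 0.1 for a higher mean), whereas within miR-92a-3p it was 0.825% against 4.54%. In let-7b-5p it was 6.25 ± 1.05% in supernatant and 4.31 ± 0.130% in TUBO cells, and its single A tail 2.89 ± 0.316% and 5.06 ± 0.138%.

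Tails of AAA were rare, with 1992 reads. They were found on 0.0545% of arm reads in MM3MG, 0.117% for MM3MG-Her2, 0.0311% for cells of TUBO, 0.0148% for its exosomes and 0.00479% for the supernatant, as group means. Of the A-tailed reads, AA made up 14.6 ± 0.806% (SD, n = 3) in MM3MG, 23.96 ± 0.397% for MM3MG-Her2, 16.1 ± 0.241% for cells of TUBO, 12.4 ± 0.931% for its exosomes and 17.7 ± 0.849% for the supernatant. The A-tailed share divided by the U-tailed share was 0.840 ± 0.00465 in MM3MG-Her2 and 0.417 ± 0.0592 in MM3MG. It was 0.409 ± 0.00843 for cells of TUBO, 0.305 ± 0.040 for its exosomes and 0.246 ± 0.0274 for the supernatant. As ratios of TUBO cells to MM3MG cells, added A stood at 0.642, U at 0.650, C at 0.634 and G at 0.391. The lower level in TUBO cells was thus not particular to A in that comparison. Against MM3MG-Her2 the ratios were 0.524 for A, 1.08 for U, 0.232 for C and 0.649 for G.

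miR-26a-5p carried U far more often than A: a single U was found on 17.2 ± 0.732% (SD, n = 3) of its reads in TUBO cells and 24.8 ± 6.68% in supernatant, and a single A on 2.53 ± 0.261% in TUBO cells. miR-210-3p had a single U on 52.0 ± 0.167% of its reads in cells of TUBO, 32.7 ± 4.57% in the exosomes and 49.1 ± 2.77% in the supernatant, an order that differs from that of its A tails.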
